A study of Mus musculus with 5 samples.

Results

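The 10 genes described here encode the enzymes and partner proteins of the MLL-family histone methyltransferase complexes and the main H3K27 acetyltransferases. They are Kmt2a, Kmt2b, Kmt2c, Kmt2d, Paxip1, Ncoa6, Setd1a, Setd1b, Crebbp and Ep300, taken by name from the 21887 protein-coding genes of the gene table. Acetylation of histone H3 at lysine 27 (H3K27ac), a mark of active promoters and enhancers, was mapped by ChIPmentation, in which antibody-bound chromatin receives its sequencing adapters from the Tn5 transposase. The samples were 4 H3K27ac libraries and 1 input library from mouse bone marrow. The cells of all 5 were sorted as CD45.2+ Lineage- cells with both Sca1 and Kit on their surface, are named HSC/MPP in the labels, and carry the genotype Mll3/4 deleted, input included. Mll3 and Mll4 are the older names of Kmt2c and Kmt2d. The driver of the deletion, the age of the mice and any pooling of animals are not given in the sources used here. The deposited list holds 22948 peaks for the H3K27ac libraries together, with no value of a single library and no other genotype. No value below therefore has a replicate error, and none measures a gain or loss caused by the deletion.

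The MLL family adds methyl groups to lysine 4 of histone H3. Kmt2c and Kmt2d act mainly at enhancers, in a complex with Paxip1 (PTIP) and Ncoa6 that also brings the H3K27 demethylase Kdm6a. Kmt2a and Kmt2b work with menin, and Setd1a and Setd1b form the SET1 complexes that place most H3K4 trimethylation at promoters. Crebbp (CBP) and Ep300 (p300) are the paralogous acetyltransferases that write most H3K27ac. In blood, Kmt2a is needed for stem cell maintenance and is known for its fusions in leukaemia, and Kmt2d and Crebbp are often mutated in B-cell lymphoma.

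The sorted cells were compared with markers of their gate. Among 3 genes of the sort, peaks lay at an end of Kit and Ptprc (CD45) and at none of Ly6a (Sca1). Of 9 HSC/MPP genes, 5 had an end peak, while Cd34, Procr, Mecom and Hlf lacked one. Peaks lay at an end of 4 of 5 B-cell genes, all but Ms4a1, at 0 of 3 T-cell genes, 0 of 4 myeloid genes and 0 of 3 erythroid genes. Over all protein-coding genes the share was 36.2%. Ebf1 had the highest end value of all these markers (signal value 12.4) and 53 peaks in its body, and Pax5 had 8.45 and 30. Among the sort and HSC/MPP genes, Meis1 had an end value of 12.2 and 7 body peaks, Runx1 10.1 and 19, and Kit 5.66 and 14, while none of the T-cell, myeloid and erythroid genes had a peak at an end or in the body. B-cell genes thus carry peaks in a gate that is lineage-negative. Their part in the peaks at the 10 genes was not tested.

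The sequences at 4 annotated starts are shown because the peaks of these genes lie around them, or in the case of Ncoa6 do not. They are RefSeq promoters of GRCm38.p6, each with 250 bases before the start and 50 from the start on, in the direction of transcription. Capitals mark the CpG dinucleotides, which the CXXC domains of Kmt2a, Kmt2b and the SET1 subunit Cxxc1 bind when unmethylated.
Kmt2c (chr5:25498734-25499033, minus strand): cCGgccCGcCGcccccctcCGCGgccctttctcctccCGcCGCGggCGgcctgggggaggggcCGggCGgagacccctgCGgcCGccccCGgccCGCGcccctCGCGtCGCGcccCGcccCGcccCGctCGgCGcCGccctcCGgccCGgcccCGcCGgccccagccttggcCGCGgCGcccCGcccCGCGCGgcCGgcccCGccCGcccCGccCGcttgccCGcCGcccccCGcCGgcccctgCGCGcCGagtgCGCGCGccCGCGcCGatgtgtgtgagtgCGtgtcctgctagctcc
Kmt2d (chr15:98871156-98871455, minus strand): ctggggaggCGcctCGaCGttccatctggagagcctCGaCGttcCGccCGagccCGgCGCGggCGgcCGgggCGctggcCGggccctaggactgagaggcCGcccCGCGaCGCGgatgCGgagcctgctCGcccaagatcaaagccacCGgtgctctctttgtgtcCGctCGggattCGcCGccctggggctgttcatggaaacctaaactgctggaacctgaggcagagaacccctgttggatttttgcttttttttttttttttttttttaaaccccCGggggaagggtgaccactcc
Ep300 (chr15:81585964-81586263, plus strand): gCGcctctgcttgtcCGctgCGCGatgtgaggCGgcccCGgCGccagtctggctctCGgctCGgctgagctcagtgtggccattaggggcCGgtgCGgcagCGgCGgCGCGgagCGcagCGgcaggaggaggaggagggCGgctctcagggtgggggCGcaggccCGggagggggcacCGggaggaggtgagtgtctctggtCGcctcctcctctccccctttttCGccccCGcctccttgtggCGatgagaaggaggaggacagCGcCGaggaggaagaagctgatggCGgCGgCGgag
Ncoa6 (chr2:155440734-155441033, minus strand): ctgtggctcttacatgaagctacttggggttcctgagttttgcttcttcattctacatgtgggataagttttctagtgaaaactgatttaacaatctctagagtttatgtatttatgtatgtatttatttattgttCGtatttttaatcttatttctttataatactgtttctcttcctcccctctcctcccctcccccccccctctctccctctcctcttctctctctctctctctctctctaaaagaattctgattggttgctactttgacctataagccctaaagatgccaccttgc

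The promoter table held 8 of the 10 genes, all but Kmt2b and Setd1b. The promoter of Kmt2c had 56 CpG dinucleotides in 300 bases, more than nearly all others (percentile 99.8 of 21255 promoters of protein-coding genes). Crebbp had 49, Kmt2a 36, Setd1a 35, Ep300 30, Paxip1 28 and Kmt2d 27. All 7 lay above the upper quartile of 24. The listed start of Ncoa6 had 1 CpG (percentile 7.99) and a GC content of 39.3%, against 62.7% to 88.0% for the other 7. Over all promoters the share with a peak within 1 kb of the start rose from 6.40% of those with 0 to 4 CpG to 64.1% of those with 35 or more. A peak lay within 1 kb of the start at the 7 CpG-rich promoters and not at the listed start of Ncoa6. Over all genes with a listed start, 38.0% had such a peak. The listed start of Ncoa6 lies 33.1 kb inside the gene span. The only end peak of Ncoa6 lay at the upstream end of the span, where the sequence was not examined. Which start these cells use cannot be told from the peak list.

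Short motifs were searched on both strands of the same 300 bases. The GC box GGGCGG, bound by Sp and KLF factors, occurred 12 times in the Kmt2c promoter, 5 times in Kmt2a, 4 times in Kmt2d, 2 times each in Crebbp and Paxip1, 1 time in Ep300 and not at all in Setd1a or Ncoa6. The motif contains a CpG, so it overlaps the CpG count. It was present in 46.2% of all promoters. The ETS motif ACTTCCG, present in 8.39% of all promoters, was in none of the 8. The letters CCAAT (38.2% of all promoters) and TATAAA (12.6%) were each found once at the listed start of Ncoa6 and in none of the other 7. The Kmt2d promoter holds an unbroken run of 22 T.

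All 10 genes had at least 1 peak at an end, which means a peak reaching into a window of 1 kb on each side of the low or high end. Of all protein-coding genes, 36.2% did. The 16 end peaks of the 10 genes had a median signal value of 4.22, close to the 4.25 of all 8341 end peaks. The signal value is the authors' enrichment of H3K27ac over the background. The strongest end peak per gene had a median of 4.37 over the 10 genes, against 4.71 over the 7929 genes with an end peak (interquartile range 3.52 to 6.55). It lay above that median in 4 of the genes (Setd1b, Ep300, Kmt2d and Kmt2c) and below it in 6. The values of Setd1b and Kmt2d come from peaks that also lie at an end of Rhof and of Prkag1. Kmt2d had 4.25 at its listed start and Setd1b 2.72 with a window of 0.5 kb. Both are below 4.71, but that median takes the strongest peak at either end with a window of 1 kb. No median over all genes was computed at the settings of these values. The genes were thus all marked at an end, and 5 of the 10 values lay between the quartiles of all genes. In stricter lists some fell out. With a q-value of at most 0.05 there were 9 of the 10 left, and Ncoa6 was lost, where 34.4% of all protein-coding genes had an end peak. With a −log10 q of 5 or more 8 were left (24.0% of all genes), and Setd1a was lost too. Holding the signal value to 4 or more left 7 (23.2% of all genes), and Kmt2a was the third to be lost.

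**Figure D1:**
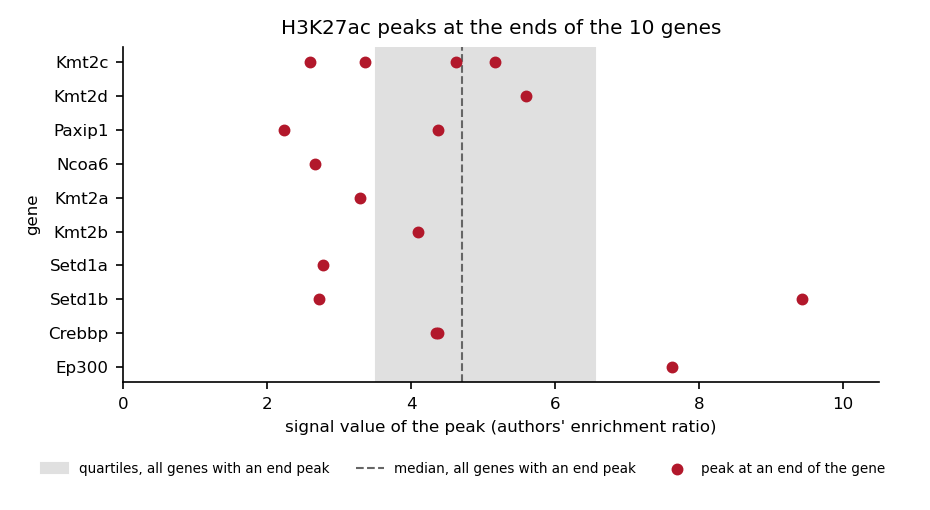
Signal value (authors' enrichment ratio, horizontal axis) of each H3K27ac peak at an end of the 10 genes (rows), 1 point per peak. The grey band and dashed line give the quartiles and the median of the strongest end peak over all 7929 protein-coding genes with one. Setd1b (9.43) and Ep300 (7.62) lie above the band, and Ncoa6 (2.66), Setd1a (2.78) and Kmt2a (3.29) lie below it.

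Kmt2c, the first of the deleted genes, spans 227.06 kb on chromosome 5 from 25271795 to 25498855 on the minus strand and had 4 end peaks. Of these, 3 surrounded the start. Upstream lay a peak from 25499110 to 25499553 with a signal value of 5.17 (percentile 58.1 among genes with an end peak) and another from 25499717 to 25500539 with 4.62. The non-coding gene 4831440E17Rik has an end within 1 kb of both. Downstream, inside the gene, a peak from 25497314 to 25498674 had a signal value of 3.36. The start itself lay in a gap of 435 bp that reached from -327 to 109 bp along transcription. Of the 7957 listed starts with a peak within 1 kb, 13.5% lay like this between peaks without being covered, and 50.8% were covered by a peak. The fourth peak lay at the far end of the gene, from 25270625 to 25271224. It was weak, with a signal value of 2.60 and a q-value of 0.0604.

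Kmt2d, the other deleted gene, spans 42.41 kb on chromosome 15 from 98831669 to 98874077 on the minus strand. Its only peak at an end of the gene table's span lay at the far end, from 98830732 to 98832470, with a signal value of 5.60 (percentile 64.5). That peak covered the listed start of Prkag1 at 98831508. Prkag1 encodes a subunit of the AMP-activated kinase, and its gene starts next to the far end of Kmt2d. The listed start of Kmt2d is 2.87 kb inside the span. A peak from 98870579 to 98871221 (signal value 4.25) covered it, beginning at -16 bp and running into the gene. Another lay upstream, from 98871389 to 98872247 (3.95), with 167 bp between them. By the rule these count as peaks in the body. Taken at the listed start, the strongest values were 5.17 for Kmt2c and 4.25 for Kmt2d. Both deleted genes thus had H3K27ac at their starts. The peaks say nothing about exons further in, and whether the deleted parts were missing was not measured.

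**Figure D2:**
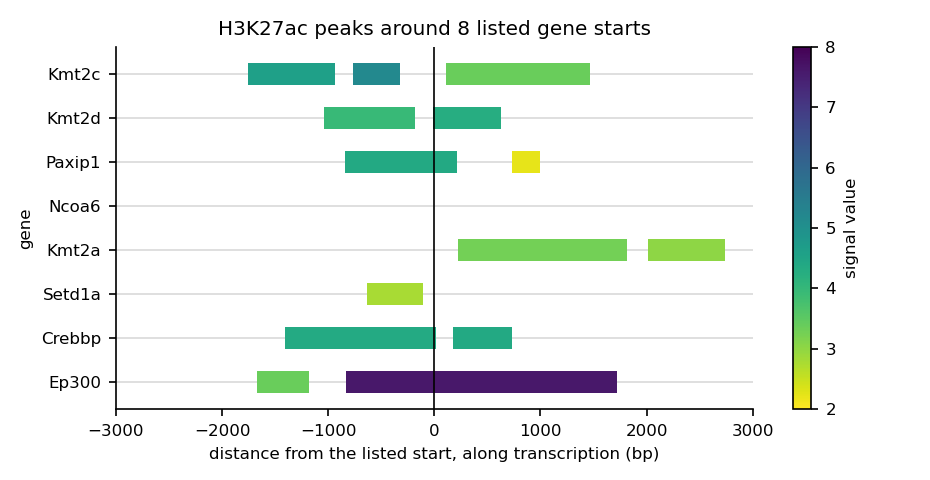
H3K27ac peaks within 3 kb of the listed start of the 8 genes in the promoter table (rows). The horizontal axis is the distance from the start in bp along transcription, each bar spans a peak, and its colour gives the signal value. Kmt2c has its start in a gap between peaks, Ep300 has a peak over the start from -834 to 1720 bp, and Ncoa6 has none.

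Paxip1, the BRCT-domain protein that joins the Kmt2c and Kmt2d complexes, had 2 peaks on chromosome 5. The stronger, from 27791335 to 27792392, had a signal value of 4.37 (percentile 44.0) and its summit at -121 bp from the listed start. The other (27790558 to 27790817) was among the weakest of the list, with a signal value of 2.23 and a q-value of 0.395. Ncoa6, the nuclear receptor coactivator of the same complexes, had 1 end peak on chromosome 2, from 155472559 to 155473382. Its signal value of 2.66 (percentile 5.57) was the lowest of the strongest end peaks of the 10 genes, and its q-value was 0.0604. It lay at the high end of the gene, which is the upstream end on the minus strand. The CpG-poor start in the promoter table lies 33.1 kb inside from that end. Taken at the listed start, the order among these 4 genes was thus Kmt2c (5.17), Paxip1 (4.37) and Kmt2d (4.25), with no peak for Ncoa6. The value of Kmt2c is that of a peak shared with 4831440E17Rik, and its unshared peak at the start had 3.36. Without replicates, no neighbours in that order can be told apart.

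Kmt2a, the founding MLL enzyme, had 1 end peak on chromosome 9, from 44879472 to 44881063, with a signal value of 3.29 (percentile 20.2). It began 226 bp downstream of the listed start and was 1592 bp wide. A second peak followed inside the gene, from 44878553 to 44879279, with a signal value of 3.03. No peak lay over or upstream of the start within 3 kb. Kmt2b, its paralogue, had 1 end peak on chromosome 7, from 30587870 to 30588602, with a signal value of 4.10 (percentile 38.2) at the high end of the gene. The strand of Kmt2b was not used here, so its start side is not named. The non-coding genes Gm32082 and Mir3569 also have an end within 1 kb of that peak.

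Setd1a, a SET1 methyltransferase, had 1 end peak on chromosome 7, from 127776754 to 127777281, with a signal value of 2.78 (percentile 8.44) and with q = 0.0211. It ended at -108 bp from the listed start, and no peak lay downstream within 3 kb. Setd1b, its paralogue, had the highest end value of the 10 genes, 9.43 (percentile 92.1), from a peak on chromosome 5 from 123138138 to 123141089. That peak reached only 50 bp into the window of Setd1b and had its summit 2.39 kb outside the gene, within Rhof, a small GTPase gene that it also marks as an end peak. The nearer end peak of Setd1b, from 123141546 to 123141823, was weaker (2.72) and was the only one with a window of 0.5 kb. It too lies within Rhof by its summit and at an end of that gene. Neither end peak of Setd1b can therefore be assigned to Setd1b alone, while the peak of 2.78 at Setd1a lies at no end of another protein-coding gene.

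Crebbp and Ep300, the acetyltransferases, both had peaks at the start. At Crebbp, on chromosome 16, a peak from 4213385 to 4214812 (signal value 4.34) reached from upstream to 19 bp past the listed start. The next began 178 bp downstream of that start, from 4212672 to 4213226, with a signal value of 4.37 (percentile 44.0). At Ep300, on chromosome 15, 1 peak from 81585380 to 81587934 ran across the start. It was 2555 bp wide, against a median of 974 bp for all end peaks, and had a signal value of 7.62 (percentile 83.1) and a −log10 q of 21.6. Outside the window a further peak, from 81584543 to 81585032, had a signal value of 3.36. Apart from the shared peak at Setd1b, Ep300 had the strongest end peak of the 10 genes.

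Inside the genes, away from the ends, there were 5 peaks, in 3 of the 10 genes: 2 in Kmt2d, 1 in Kmt2a and 2 in Setd1b. Of all protein-coding genes, 16.6% had a body peak. Both Kmt2d peaks were those at its listed start, and the one of Kmt2a lay 2.19 kb from the high end. In Setd1b, peaks from 123143052 to 123143577 (signal value 2.45, q-value 0.159) and from 123150840 to 123151129 (3.00) lay 1.37 and 8.92 kb from the low end. Kmt2c had no peak in its body although it is the longest of the 10. Each gene was set beside the genes with an end peak in its own class of gene length, of 10 classes. In the class of Kmt2c and Crebbp (132.62 kb long, also without a body peak), 73.6% of 696 such genes had one, with a median of 2. In the class of Ncoa6, Ep300 and Kmt2a 50.6% had one, and of these 3 genes only Kmt2a did. The share was 30.3% in the class of Kmt2d, which had body peaks, and Paxip1, which had none. It was 22.7% in the class of Setd1b, which had body peaks, and 17.2% in that of Kmt2b and Setd1a, which had none. Inside these 10 genes H3K27ac peaks were thus near the ends or the listed start, with 1 exception 8.92 kb inside Setd1b. A body without peaks holds none that the authors' calling kept, and the depth behind that calling is unknown.

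**Figure D3:**
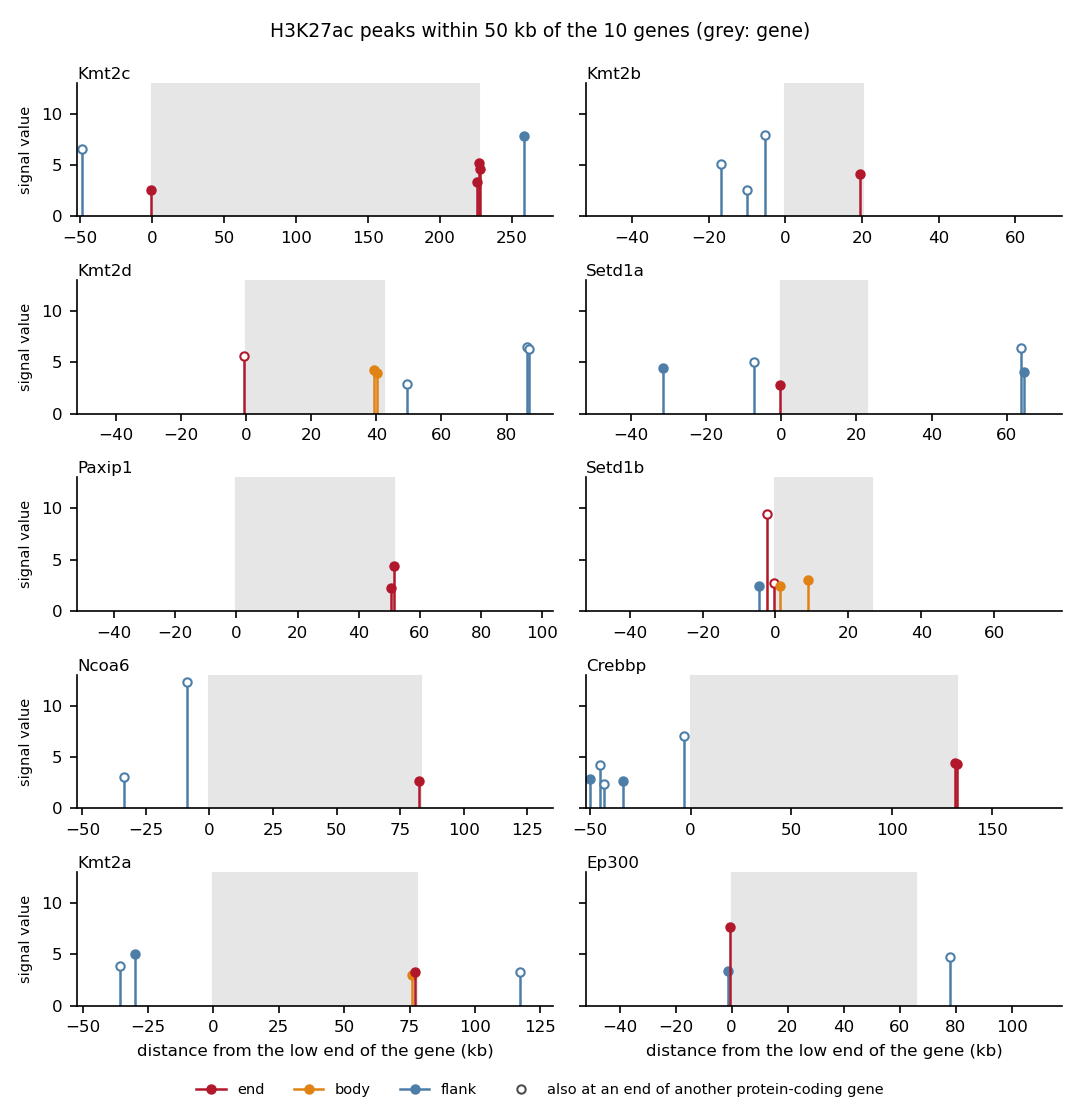
All 46 peaks within 50 kb of the 10 genes, 1 panel per gene. The horizontal axis is the distance of the summit from the low end of the gene in kb, the grey band is the gene, and the height is the signal value. Red marks peaks at an end, orange in the body and blue in the flank, and open circles mark peaks also at an end of another protein-coding gene. Apart from end peaks, only Kmt2d, Kmt2a and Setd1b hold a peak inside the gene. The highest stem, 12.3, is the flank peak of Ncoa6 at Trp53inp2.

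The flanks, up to 50 kb outside the genes, held 25 peaks. They belonged to 9 of the 10 genes, against 57.6% of all protein-coding genes with a flank peak. Paxip1 had none. Of the 25, 17 lay at an end of another protein-coding gene, or 68.0%, and 20 at an end or a listed start of one, or 80.0%. Over all protein-coding genes these shares were 57.5% and 62.8% of 33306 pairs of a gene and a flank peak. The strongest flank peak lay 8.67 kb below Ncoa6, on chromosome 2 from 155380936 to 155383274, with a signal value of 12.3. It is at the start of Trp53inp2, a regulator of autophagy. Next came the peak shared by Psenen, a gamma-secretase subunit, and the splicing factor gene U2af1l4 (7.93), 5.34 kb below Kmt2b. Trap1, a mitochondrial chaperone gene 3.33 kb below Crebbp, had a peak of 7.04. In 7 of the 10 genes a flank peak was stronger than the strongest end peak of the gene itself. The same held for 40.8% of all 7929 genes with an end peak, and for 53.4% of the 6061 that also had a flank peak.

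The remaining 5 flank peaks were at no end or listed start of another protein-coding gene. The strongest lay beyond the start of Kmt2c, on chromosome 5 from 25529867 to 25530889, with a signal of 7.87 and a −log10 q of 23.4, above all 4 end peaks of Kmt2c. Its summit was 31.55 kb from the gene, and the long non-coding RNA gene 1700096K18Rik has an end within 1 kb of it. The others were the peak of 3.36 just upstream of Ep300, a peak of 2.41 (q-value 0.159) 4.60 kb below Setd1b within Rhof, and peaks of 2.62 within Trap1 and of 2.87 at 49.99 kb from Crebbp. The last lies just inside the limit of 50 kb.

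The other genes of the pathway were taken from 5 lists of 37 genes, of which 33 had a peak at an end, beside the 36.2% of all protein-coding genes. Of the core subunits that every COMPASS complex shares, Rbbp5 (signal value 6.03) and Wdr5 (3.09) had an end peak and Ash2l and Dpy30 did not. Dpy30 had a peak of 3.39 within 1 kb of a listed start inside its span, as Kmt2d did, and Ash2l had 2 peaks in its body. All 9 further subunits of the MLL and SET1 complexes had an end peak, led by the demethylase Kdm6a (7.41), a partner of the Kmt2c and Kmt2d complexes, and by Hcfc1 (6.92). Both are on the X chromosome. The only end peak of Pagr1a also lies at an end of Mvp, and no peak lay within 1 kb of its listed start. Of 10 other acetyltransferase genes 8 had an end peak, the strongest at Kat5 (11.6), the catalytic subunit of the TIP60 complex, and Kat7 (7.87). Kat6b and Ncoa3 had none, with 2 and 6 peaks in the body. The end peak of Kat2a lies at an end of Dhx58 too, and no peak lay within 1 kb of its listed start.

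All 8 genes for H3K27 deacetylases and their corepressors had an end peak. The highest were Rcor1 (7.77), the CoREST scaffold, and Ncor1 (6.06). All 6 genes listed as H3K4 demethylases had one as well. The highest in that list were Kdm2b (9.87), which also has a CXXC domain, and Kdm5a (9.83). The peak at Kdm5a lies at an end of Ccdc77 too. Those of Kdm5b, Kdm1b, Gps2 and Hdac3 are likewise shared, with Mgat4e, Tpmt, Neurl4 and Rell2 in that order. The median of the strongest end peak was 4.83 over the 33 genes, beside 4.37 for the 10 genes and 4.71 for all genes with an end peak. A body peak was found in 16 of the 37 genes, beside 3 of the 10 genes and 16.6% of all protein-coding genes, with no match on gene length. By list these were 2 of 4 core subunits, 3 of 9 further subunits, 7 of 10 acetyltransferases, 3 of 8 deacetylases and corepressors and 1 of 6 demethylases. In the 7 acetyltransferase genes with body peaks the numbers ran from 1 each in Kat8 and Kat6a to 8 in Kat2b and 16 in Ncoa2. No test of these counts was made.

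**Figure D4:**
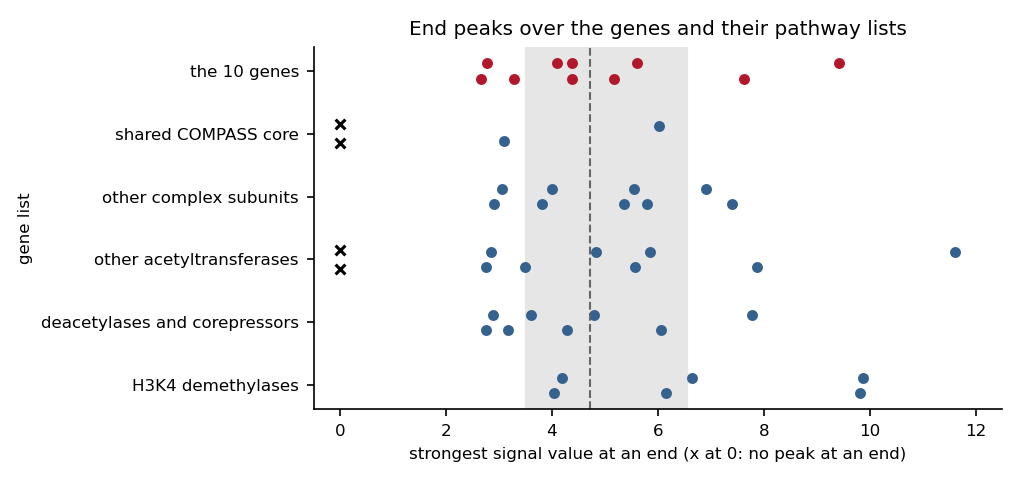
Strongest signal value at an end (horizontal axis) for the 10 genes (red) and for the genes of 5 pathway lists (blue), 1 point per gene. Crosses at 0 mark genes without a peak at an end, and the grey band and dashed line give the quartiles and median over all genes with one. The 10 genes span 2.66 to 9.43, and the highest point is Kat5 at 11.6.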

How the data were processed

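H3K27ac was mapped by ChIPmentation in 4 libraries of 1 genotype, with 1 input library. The authors deposited 1 list of peaks for these together, and no header describes it. Per the submitters' processing notes BWA, MACS2 and the build mm10 were used, and their versions and settings are not given in the sources used here. The signal value is the authors' enrichment ratio of a peak over background, the −log10 q-value and −log10 p-value of each peak are the authors' too, and the deposited score was not used. Depth is unknown.

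Gene spans and promoters came from RefSeq tables of GRCm38.p6, the assembly of mm10. Peaks were sorted by position in Python 3.11.15 with pandas 2.3.3: at an end (any overlap with 1 kb on either side), in the body (summit between the ends) or in the flank (summit outside, within 50 kb), each peak in 1 class per gene. Listed starts came from the promoter table. The sorting was checked on peaks placed at known positions. Coordinates are 1-based. Percentiles are midranks over genes.

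The 10 genes and the lists were chosen with earlier results of these data known, so no test was made. All 10 genes were named, and from each pathway list the genes without an end peak and the 2 strongest. Pathway genes whose strongest end peak is shared with another protein-coding gene were named as well. Marker genes were counted by list, and 1 gene fixed as an HSC/MPP marker is not reported here. Kat8, Kat6a, Kat2b, Ncoa2 and the promoter motifs were chosen once the values were known. Alternatives were stricter lists, other windows and flanks, summits, and listed starts alone.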

Additional observations from a re-analysis of the deposited data

How the results depend on the processing

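Of 50 values recomputed under alternatives, 36 stayed within 1.5 times the value reported and 14 moved further. The number of the 10 genes with an end peak was 9 with a q-value of at most 0.05, which removes Ncoa6. It was 8 with a −log10 q of 5 or more, which removes Setd1a as well. It was 7 where the signal value had to reach 4, which removes Ncoa6, Setd1a and Kmt2a. It was 9 with a window of 0.5 kb, and the share of all protein-coding genes with that window was not computed. For listed starts it was 7 of 8, beside 38.0% of all genes with a listed start. The median of the strongest end value ranged from 4.24 to 5.17. Of the 37 other genes of the pathway, 33 had an end peak, also with a q-value of at most 0.05. With a −log10 q of 5 or more the number was 23, beside 24.0% of all protein-coding genes. It was 22 where the signal value had to reach 4, beside 23.2%. At the listed start it was 24 of 27, beside 38.0% of all genes with a listed start.

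The numbers of peaks moved more. The 16 end peaks became 10 with a −log10 q of 5 or more, 9 where the signal value had to reach 4 and 10 with a window of 0.5 kb. The 5 body peaks became 2, 1 and 8 in the same order, and 2 with a window of 2.5 kb. The number of genes with a body peak, 3, became 1, 1 and 6. The share of all protein-coding genes with a body peak was not computed at these settings. These counts therefore show how the sorting depends on the settings, and nothing particular to the 10 genes. The 25 flank peaks became 15 with either stricter list, 10 within 25 kb and 44 within 100 kb. Without peaks around listed starts, an alternative chosen after the data were seen, 2 genes had a body peak. Narrower windows turn end peaks into body peaks by construction.

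Leaving out each library in turn was not run, as no column belongs to 1 library. No paired analysis was possible because the groups share fewer than 2 replicate numbers. The depth behind the list is unknown, so whether weaker peaks were missed in the gene bodies was not measured.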
